A study of Rattus norvegicus with 13 samples.

Results

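The expression of 10 genes of the interferon-gamma response was followed in the ventral midbrain of rats that had received methamphetamine (METH): the guanylate-binding protein Gbp2, the chemokines Cxcl9, Cxcl10 and Cxcl11, the immunoproteasome subunits Psmb8 and Psmb9, the peptide transporter subunits Tap1 and Tap2, the class I light chain B2m and the class II invariant chain Cd74. They were taken by gene symbol, and each of the 10 had 1 named probe among the 13337 named genes of the array. All 10 passed the filter on dim probes, which 11040 named genes passed. The genes were chosen by their role and with the log2 fold changes of the METH challenge comparisons of these same arrays already known, so those comparisons are given as descriptions and no p-value is printed for them. Counts of genes at a criterion in those comparisons are descriptive too.

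The arrays were Illumina RatRef-12 BeadChips with RNA from a block of ventral midbrain holding the SN/VTA, the dopaminergic cell groups of the nigra and the tegmentum, in male Sprague-Dawley rats aged 8 weeks. The 13 arrays fell into 4 groups named by pretreatment and then challenge. MM animals (3 arrays) had METH pretreatment and a METH challenge, MS animals (4 arrays) METH pretreatment and a saline challenge, SM animals (3 arrays) saline pretreatment and a METH challenge, and SS animals (3 arrays) saline both times. Pretreatment ran for 3 weeks, with METH injections of 0.5 to 2.5 mg/kg. The challenge came 72 h later as 8 injections of 5 mg/kg METH or of saline, 1 h apart, and tissue was taken 24 h after the last injection. The labels number the arrays of a group as replicates without tying a number to an animal, so the spread between arrays may be partly technical.

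Interferon-gamma is a cytokine made mainly by T and NK cells. It binds the receptor chains IFNGR1 and IFNGR2, which signal through the kinases JAK1 and JAK2. Target promoters carry GAS elements, and the induced factor IRF1 binds ISRE elements. Known targets in human and mouse cells include guanylate-binding proteins, the chemokines that attract T cells through the receptor CXCR3, and the genes that cut, transport and load peptides onto class I molecules. In healthy brain tissue these genes are expressed at low levels apart from B2m, and microglia and endothelial cells are among their main sources.

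Levels are given as scaled signals, in units inferred from the steps of the deposited ratios, after each array was brought to the same median. A value printed as at the limit was set to the lowest value that the deposited table allows, which held for 28.21% of all values. Among 1060 probes averaging 5 to 10 units, arrays within a group typically spread by an SD of 4.52 units (median), and by 5.35 units among 1777 probes averaging 10 to 20 units. The 3 chemokines lay in or near this range on most arrays, so their fold changes carry the widest errors. Fold changes are log2 values from the limma fit with their SE. A gene met the criterion when it differed by at least 1.7-fold at an unadjusted p under 0.05. These cut-offs are those of the study's methods, but the p came from limma and not from the study's software. The genes that meet it here can therefore differ from those the study lists. No probe passed an adjusted p of 0.05 in the SM against SS comparison, and 1 of 17140 probes did so in MM against MS (limma, Benjamini-Hochberg). Levels of different genes are not set against each other, because probes differ in brightness.

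Gbp2 encodes an interferon-inducible GTPase of cell-autonomous immunity. It was the member that differed most clearly between the groups. Its signal was 44.4, 40.5 and 44.5 units on the SM arrays, against 97.1, 123.0 and 102.6 units on the SS arrays. After METH pretreatment it was 67.7, 68.4 and 52.5 units on the MM arrays, against 77.1, 158.5, 77.5 and 89.3 units on the MS arrays. Every METH-challenged array lay below every saline-challenged array of the same pretreatment. The log2 fold change was -1.31 (SE 0.24) for SM over SS, a 2.48-fold lower level, and -0.62 (SE 0.22) for MM over MS, a 1.54-fold lower level. By mean level the groups ran from SM at 43.1 ± 2.31 units, through MM at 62.9 ± 8.98 and MS at 100.6 ± 39.0, to SS at 107.6 ± 13.6 units (SD, n = 3, 3, 4 and 3 arrays). Neighbouring groups in this order did not overlap, except MS and SS. The high MS value came from replicate 2. Without it the MM arrays still lay below the MS arrays, and the log2 fold change for MM over MS was -0.38.

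**Figure D1:**
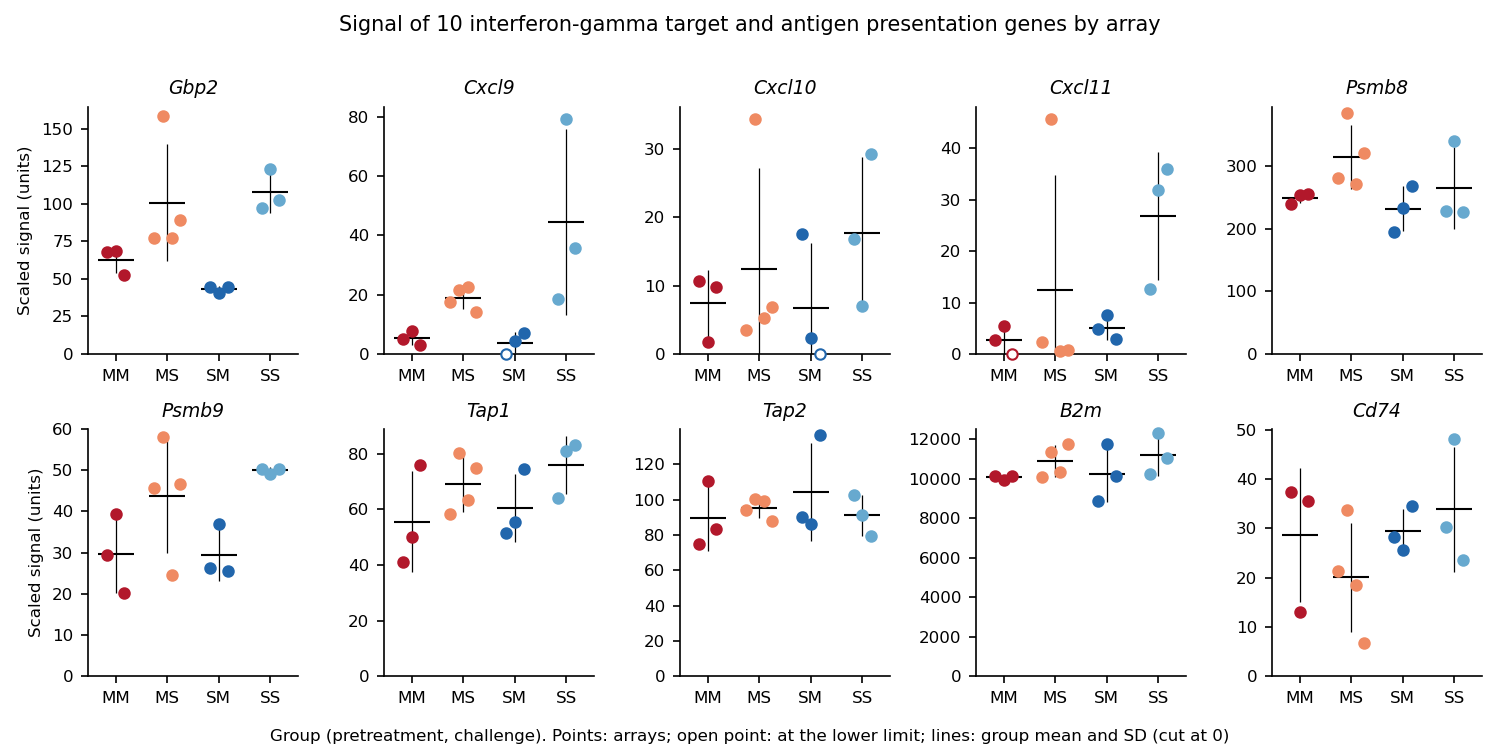
Scaled signal in units (vertical axis, linear from 0) of the 10 genes by group. Points are arrays, open points are arrays at the lower limit, and lines give the group mean and SD. The SM points of Gbp2 lie between 40.5 and 44.5 units, below all SS points (97.1 to 123.0 units), and the MM points of Cxcl9 lie below all MS points.

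Cxcl9, Cxcl10 and Cxcl11 encode the 3 ligands of CXCR3 and lie next to each other on chromosome 14 of the rat, in the order Cxcl11, Cxcl10, Cxcl9. Cxcl9 was at the limit, 4.25 and 7.24 units on the SM arrays, against 18.4, 79.3 and 35.9 units on the SS arrays. It was 5.00, 7.80 and 3.06 units on the MM arrays, against 17.5, 21.6, 22.6 and 14.3 units on the MS arrays. As for Gbp2, no METH-challenged array reached any saline-challenged array of its pretreatment. The log2 fold change was -4.56 (SE 1.16) for SM over SS and -1.93 (SE 1.08) for MM over MS. The first value rests in part on SM replicate 1, which was at the limit, and without that array it was -2.76. The ratio of the mean signals was 0.086 for SM over SS and 0.278 for MM over MS, with the limit counted as 0. Without SM replicate 1, Cxcl9 also met the criterion in MM against MS. That array is not part of MM against MS, so only the error estimated over all groups changed.

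Cxcl11 was 4.93, 7.60 and 2.92 units on the SM arrays, against 12.7, 31.8 and 36.0 units on the SS arrays. It was 2.72, 5.45 and at the limit on the MM arrays, against 2.28, 45.7, 0.539 and 0.867 units on the MS arrays. The SM and SS arrays did not overlap, whereas the MM arrays lay among the MS arrays, of which only replicate 2 exceeded 2.28 units. The log2 fold change was -2.35 (SE 1.69) for SM over SS and -1.18 (SE 1.58) for MM over MS. The second value turned positive without MM replicate 3, the array at the limit (0.54), or without MS replicate 2 (0.19), and was -2.29 without MM replicate 2. The first met the criterion with only the SM and SS arrays in the fit, and also, at -0.98, with an offset of 16 units on the signals. Cxcl10 showed no such order. It was 17.6, 2.35 and at the limit on the SM arrays, against 16.8, 7.03 and 29.2 units on the SS arrays, and 10.7, 1.72 and 9.82 units on the MM arrays, against 3.52, 34.4, 5.28 and 6.94 units on the MS arrays. Its log2 fold changes of -3.20 (SE 1.53) and -0.53 (SE 1.43) came with overlapping arrays in both comparisons. Without SM replicate 1 the first was -4.91 and met the criterion, and without SM replicate 4 it was -1.23. The second was 0.33 without MM replicate 2 and 0.16 without MS replicate 2.

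The promoters of the genes described above, and those of Psmb9 and Tap1, are shown so that the letters of 3 interferon and NF-kB type motifs can be placed beside the levels. Each line gives the 250 bases before the annotated start (RefSeq, build GRCr8), 5′ to 3′ on the strand of the gene. Capitals mark the GAS letters TTCNNNGAA, the ISRE core GAAANNGAAA and the NF-kB type letters GGGANNTTCC, searched on both strands.
Gbp2 (chr2:234005477-234005726, plus strand): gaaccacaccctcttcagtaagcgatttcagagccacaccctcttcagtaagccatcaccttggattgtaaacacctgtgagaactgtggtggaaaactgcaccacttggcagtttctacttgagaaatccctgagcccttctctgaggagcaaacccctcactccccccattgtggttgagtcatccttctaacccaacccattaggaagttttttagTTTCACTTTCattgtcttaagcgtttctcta
Cxcl9 (chr14:16006916-16007165, plus strand): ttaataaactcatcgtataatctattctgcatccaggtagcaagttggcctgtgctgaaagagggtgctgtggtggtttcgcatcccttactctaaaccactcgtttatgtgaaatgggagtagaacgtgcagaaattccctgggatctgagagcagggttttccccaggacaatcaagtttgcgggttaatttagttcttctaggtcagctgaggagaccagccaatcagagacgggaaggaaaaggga
Cxcl10 (chr14:15988816-15989065, plus strand): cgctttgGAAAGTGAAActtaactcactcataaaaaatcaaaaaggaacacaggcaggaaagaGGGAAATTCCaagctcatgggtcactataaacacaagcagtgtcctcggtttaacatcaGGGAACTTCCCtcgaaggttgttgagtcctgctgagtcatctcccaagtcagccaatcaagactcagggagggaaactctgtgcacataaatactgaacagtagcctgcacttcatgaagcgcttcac
Cxcl11 (chr14:15973478-15973727, plus strand): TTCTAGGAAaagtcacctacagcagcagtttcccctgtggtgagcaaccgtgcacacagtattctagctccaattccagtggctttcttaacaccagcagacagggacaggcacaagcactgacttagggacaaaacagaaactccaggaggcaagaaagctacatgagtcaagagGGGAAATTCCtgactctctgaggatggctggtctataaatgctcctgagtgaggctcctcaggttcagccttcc
Psmb9 (chr20:4668750-4668999, plus strand): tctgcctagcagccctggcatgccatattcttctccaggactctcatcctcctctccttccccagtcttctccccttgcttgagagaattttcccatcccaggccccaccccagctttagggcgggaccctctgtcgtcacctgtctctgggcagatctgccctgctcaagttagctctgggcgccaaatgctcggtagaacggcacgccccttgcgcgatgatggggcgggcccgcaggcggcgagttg
Tap1 (chr20:4668544-4668793, minus strand): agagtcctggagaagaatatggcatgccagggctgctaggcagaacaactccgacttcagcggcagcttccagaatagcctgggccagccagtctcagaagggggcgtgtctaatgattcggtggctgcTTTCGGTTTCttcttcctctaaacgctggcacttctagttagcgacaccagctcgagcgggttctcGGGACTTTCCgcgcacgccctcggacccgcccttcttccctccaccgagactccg

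The ISRE core letters were found upstream of 5 of the 10 genes (Gbp2, Cxcl10, Tap1, Tap2 and B2m), against 3.41% of 33465 rat promoter windows of this length. In Gbp2 they read TTTCACTTTC, on the opposite strand, from 31 to 22 bases before the start. The NF-kB type letters were found in 4 genes (Cxcl10, Cxcl11, Tap1 and B2m), against 1.08% of windows, and in Cxcl10 a pair of overlapping matches on both strands makes up the longer run of capitals. The GAS letters were found in Cxcl11 and Psmb8, against 7.67% of windows. None of the 3 sets of letters was found in these windows of Cxcl9, Psmb9 and Cd74. Of the genes with ISRE letters, Gbp2 was lower on METH-challenged than on saline-challenged arrays of either pretreatment without overlap, and Cxcl10, Tap1, Tap2 and B2m were not. Cxcl9, with none of the 3 sets of letters, was lower without overlap in both comparisons too. A match is a run of letters and not a shown binding site. The 10 genes were chosen by their role as interferon targets, so shares above those of all windows describe the list and give it no support.

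Psmb8 and Psmb9 encode the catalytic subunits LMP7 and LMP2, which replace PSMB5 and PSMB6 in the immunoproteasome. With Tap1 and Tap2 they form a run of 4 adjacent genes within the major histocompatibility complex on chromosome 20, in the order Tap2, Psmb8, Tap1, Psmb9, and Tap1 and Psmb9 are read away from each other from overlapping promoter windows. Psmb9 was 26.2, 36.9 and 25.6 units on the SM arrays, against 50.4, 49.2 and 50.4 units on the SS arrays. It was 29.4, 39.4 and 20.2 units on the MM arrays, against 45.8, 58.1, 24.5 and 46.7 units on the MS arrays. SM lay wholly below SS, and MM overlapped MS only through MS replicate 3. The log2 fold change was -0.78 (SE 0.31) for SM over SS, a 1.72-fold lower level that met the criterion narrowly, and -0.55 (SE 0.29) for MM over MS, which was -0.29 without MM replicate 3. The criterion in SM against SS was missed without SM replicate 4 or any 1 of the SS arrays, and also without SM replicate 1. In MM against MS it was met without MM replicate 2 or without MS replicate 3.

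Psmb8 was 195.6, 233.5 and 267.7 units on the SM arrays, against 229.1, 340.3 and 226.3 units on the SS arrays, which overlapped. It was 239.6, 253.6 and 255.2 units on the MM arrays, against 280.9, 384.9, 272.1 and 320.5 units on the MS arrays, with every MM array below every MS array. The log2 fold changes were small, at -0.18 (SE 0.18) for SM over SS and -0.32 (SE 0.17) for MM over MS, and the first was 0.02 without SS replicate 3. The subunits that the immunoproteasome replaces were Psmb5, Psmb6 and Psmb7. Their log2 fold changes were 0.16, 0.03 and -0.00 for SM over SS, and -0.08, -0.14 and -0.03 for MM over MS, with SEs of 0.08 to 0.11. The third inducible subunit, Psmb10, had values of -0.06 (SE 0.09) and -0.11 (SE 0.09). Among 14 subunits of the constitutive core, none met the criterion in these 2 comparisons, and their median log2 fold change was 0.04 for SM over SS and 0.02 for MM over MS.

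Tap1 and Tap2 encode the subunits of the transporter that carries peptides into the endoplasmic reticulum. Tap1 was 51.5, 55.3 and 74.4 units on the SM arrays, against 63.9, 80.9 and 83.0 units on the SS arrays, and 40.9, 50.0 and 75.9 units on the MM arrays, against 58.2, 80.1, 63.5 and 74.9 units on the MS arrays. The groups overlapped in both comparisons, and the log2 fold changes were -0.34 (SE 0.23) and -0.35 (SE 0.21). Tap2 was 90.4, 86.3 and 136.6 units on the SM arrays, against 102.8, 91.2 and 79.6 units on the SS arrays, and its fold changes lay on both sides of 0 (0.17, SE 0.19, for SM over SS and -0.11, SE 0.18, for MM over MS). On the MM arrays Tap2 was 74.9, 110.5 and 83.2 units, against 93.9, 100.2, 99.3 and 87.7 units on the MS arrays. Without SM replicate 4 the first of these was -0.04, and without MM replicate 1 the second was 0.01. The 2 subunits of the transporter thus had overlapping groups throughout, unlike their neighbour Psmb9 in SM against SS.

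B2m, the light chain shared by all class I molecules, was bright on every array. Its signal was 8899.5 to 11753.7 units on the SM arrays, against 10231.6 to 12341.7 units on the SS arrays, and 9948.0 to 10141.5 units on the MM arrays, against 10112.7 to 11780.7 units on the MS arrays. The log2 fold changes were -0.13 (SE 0.12) for SM over SS, with a 95% interval of -0.39 to 0.13, and -0.11 (SE 0.11) for MM over MS, with an interval of -0.35 to 0.13. Of 22 tested class I heavy chain probes (RT1 genes), none met the criterion in either comparison, and 11 had lower and 11 higher values in SM against SS. Some RT1 genes are close copies of each other, and a probe may read more than 1 of them.

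Cd74 encodes the invariant chain, which chaperones class II molecules. Its signal was 28.3, 25.7 and 34.5 units on the SM arrays, against 30.2, 48.1 and 23.5 units on the SS arrays. It was 37.5, 13.0 and 35.5 units on the MM arrays, against 21.4, 33.7, 18.5 and 6.74 units on the MS arrays. The groups overlapped, and it was the only member with a positive log2 fold change for MM over MS, 0.58 (SE 0.51), beside -0.15 (SE 0.55) for SM over SS. Without SS replicate 3 the SM over SS value was 0.14. The class II chains RT1-Da and RT1-Db1 had values of 0.05 (SE 0.25) and -0.34 (SE 0.28) for SM over SS, and of -0.02 (SE 0.23) and 0.05 (SE 0.26) for MM over MS. RT1-Ba, a class II alpha chain, was at the limit on 2 arrays and had SEs above 1.7. Ciita, the regulator that switches on class II genes, was at the limit on all 13 arrays. None of 13 tested class II pathway genes met the criterion in these comparisons.

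**Figure D2:**
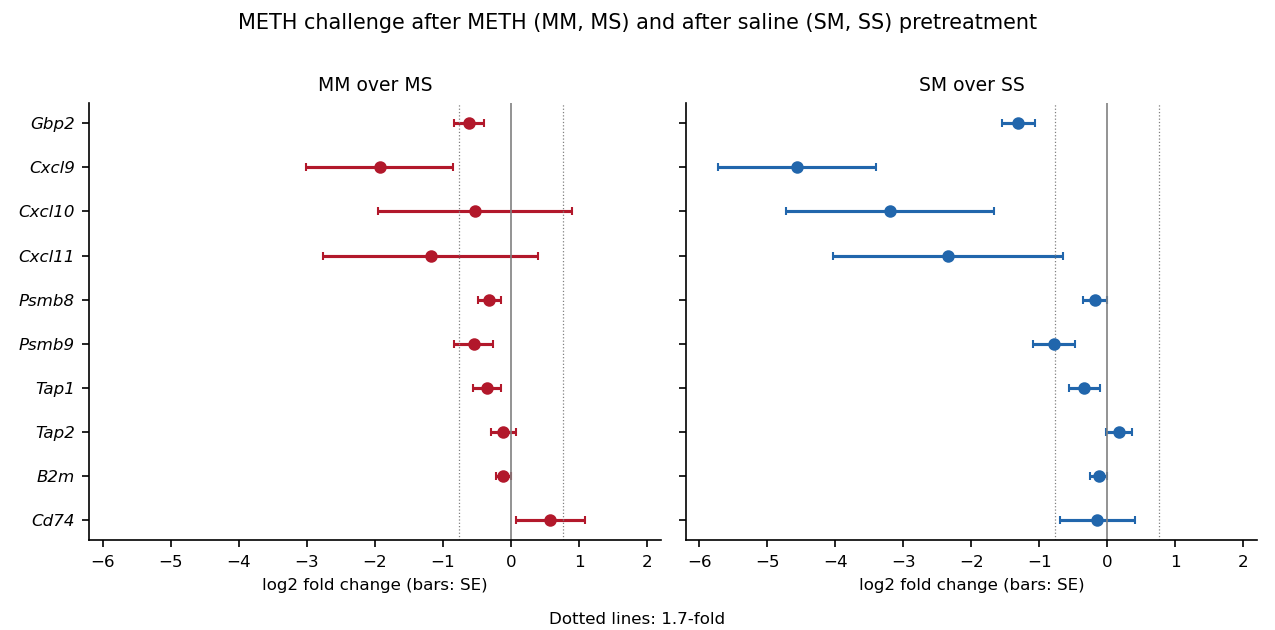
Log2 fold change (horizontal axis, points) with SE (bars) of the 10 genes for the METH challenge after METH pretreatment (left, MM over MS) and after saline pretreatment (right, SM over SS). Dotted lines mark 1.7-fold. The chemokines have the widest bars, and Gbp2 lies at -0.62 on the left and -1.31 on the right.

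Counted together, 9 of the 10 genes had a negative log2 fold change for SM over SS and 9 for MM over MS, where 48.3% and 52.7% of all probes did. The exceptions were Tap2 and Cd74. The criterion was met as lower by 3 genes in SM against SS (Gbp2, Cxcl9 and Psmb9), where 0.939% of all tested probes met it in that direction. It was met by none in MM against MS, where 0.583% of probes did. All SM arrays lay below all SS arrays for 4 genes (Gbp2, Cxcl9, Cxcl11 and Psmb9), against 4.6% of all probes, and all MM arrays below all MS arrays for 3 (Gbp2, Cxcl9 and Psmb8), against 2.41%. Both held for Gbp2 and Cxcl9, against 0.274% of probes. The median log2 fold change of the 10 genes was -0.56 for SM over SS and -0.44 for MM over MS, beside 0.01 and -0.01 over all probes. Since the genes were listed with these comparisons known, these shares describe the list and give it no support. Without MS replicate 2 the median for MM over MS was -0.16.

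**Figure D3:**
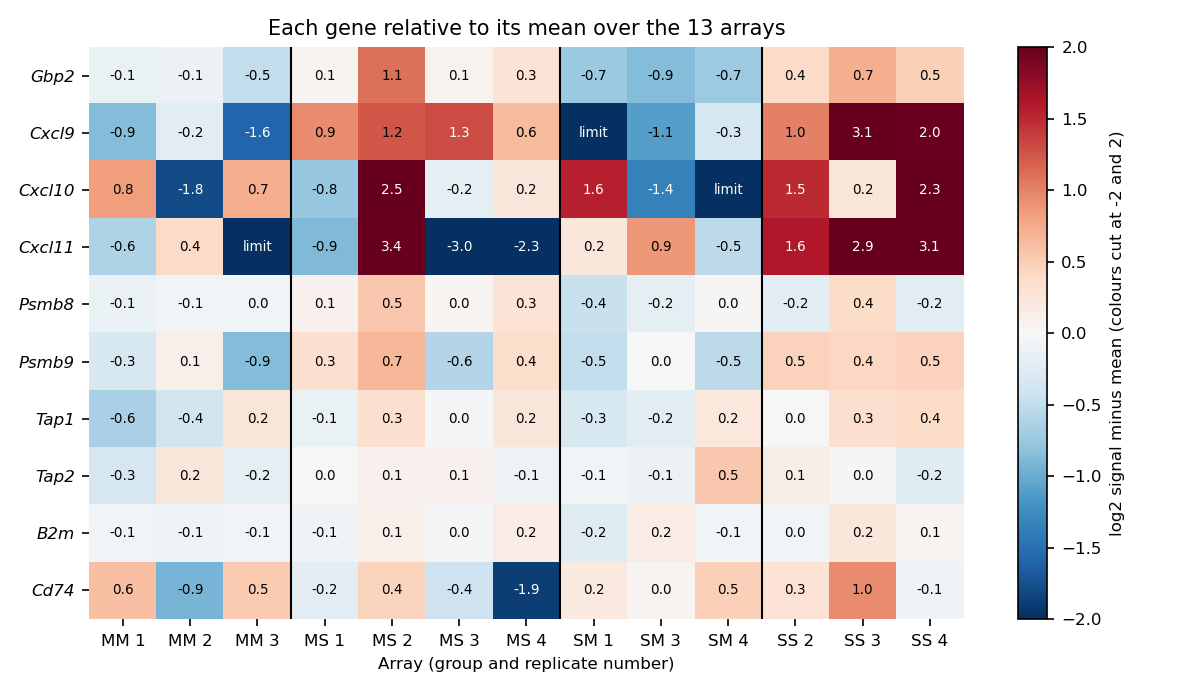
Log2 signal of each gene minus its mean over the 13 arrays (colour and printed value), by array, in the group order MM, MS, SM and SS. MS 2 is positive for all 10 genes, and the Gbp2 row is negative on all MM and SM arrays.

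Single arrays carried much of the spread within groups. MS replicate 2 was the highest MS array for 8 of the 10 genes, SM replicate 4 the highest SM array for 6, and MM replicate 2 and SS replicate 3 the highest of their groups for 5 each. The median of the 10 centred log2 values was 0.60 on MS replicate 2 and between -0.03 and 0.22 on the other MS arrays. It lay between -0.23 and -0.10 on the MM arrays, between -0.28 and -0.15 on the SM arrays and between 0.34 and 0.41 on the SS arrays. B2m stayed between -0.25 and 0.22 of its mean on all arrays, whereas each of the 3 chemokines reached values more than 3 log2 units from its mean on at least 1 array.

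Blood transcripts were lower in SM than in SS as well. The summed signal of 11 blood markers was 28527.3 to 32266.9 units on the SM arrays, against 47893.4 to 60105.7 units on the SS arrays, so the groups did not overlap. Of 10 tested, 9 were lower and 4 met the criterion (Hbb, Hbb-b1, Alas2 and Pf4). Hbb, a beta globin, had a log2 fold change of -0.88 (SE 0.20). After METH pretreatment the sum was 28400.8 to 47326.1 units on the MM arrays, against 34666.0 to 46795.7 units on the MS arrays. The part of blood in the lower SM values of Gbp2, Cxcl9 and Psmb9 was not tested.

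The summed signal of 16 meningeal and choroid plexus markers was 6124.9 to 6211.3 units on the MM arrays, against 7173.0 to 7971.0 units on the MS arrays, and their part was not tested either. It was 5235.8 to 6447.1 units on the SM arrays, against 6278.7 to 8204.4 units on the SS arrays. For MM over MS, 15 of the 16 genes were lower, with a median log2 fold change of -0.35. For SM over SS, 11 were lower and 5 higher, with a median of -0.14. Of these 16 genes only Col1a1 met the criterion, as lower in SM (log2 fold change -1.07, SE 0.39). For 15 microglial and macrophage markers the sum was 6487.1 to 7168.8 units on the SM arrays, against 6346.1 to 6632.3 units on the SS arrays. Of these 15, 7 were lower and 8 higher for SM over SS, with a median log2 fold change of 0.02. Aif1, a microglial calcium-binding protein, had a value of -0.22 (SE 0.17) for SM over SS. Only Mrc1, a marker of perivascular macrophages, met the criterion, as lower at -1.13 (SE 0.28). Of 16 T and NK cell markers, Klrd1 was at the limit on all 13 arrays and Cd3d, Cd5 and Cd28 on 12. Cd8b and Nkg7 were at the limit on 11, Cd8a and Gzmb on 10, Cd247 on 8, Ncr1 on 3 and Cd3g on 1. Cd3e, at 16.4 to 39.3 units, and 4 others (Cd4, Lck, Klrk1 and Prf1) were above the limit on every array. The summed signal of all 16 was 106.7 to 123.7 units on the SM arrays, against 117.6 to 177.4 units on the SS arrays. It was 131.9 to 162.1 units on the MM arrays, against 126.6 to 149.3 units on the MS arrays. Of 10 tested, 7 were lower and 3 higher for SM over SS, with a median log2 fold change of -0.18. For MM over MS, 4 were lower and 6 higher, with a median of 0.13. In whole tissue, fewer cells of a type and less RNA per cell cannot be told apart. As a check of the labelled tissue, Th, the dopamine synthesis enzyme, was above the limit on every array, at 211.2 to 2675.2 units, and Slc6a3, the dopamine transporter, on 12 of 13. Ddc and Foxa1, among 11 dopamine neuron markers, were at the limit on all arrays. MS replicate 2, the MS array with the highest values of most members, also had the highest Th and, at 1.08, the highest mean centred log2 value of the dopamine markers, and whether this bears on the members was not tested.

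Upstream of the 10 genes lie the ligand, its receptor and the factors they activate. Ifng itself, the ligand, was dim at 20.1 to 22.7 units on the SM arrays, against 15.7 to 25.7 units on the SS arrays. It was 15.1 to 20.5 units on the MM arrays, against 22.1 to 29.9 units on the MS arrays, a log2 fold change of -0.50 (SE 0.17) with no overlap. Irf9, a DNA-binding factor of type I interferon signalling, was 69.5, 133.3 and 133.9 units on the SM arrays, against 138.5, 151.7 and 154.3 units on the SS arrays (log2 fold change -0.46, SE 0.23), also with no overlap. Ifng and Irf9 were named here after their values were seen. The receptor chains Ifngr1 and Ifngr2 had values of 0.11 (SE 0.15) and -0.11 (SE 0.24) for SM over SS, and of -0.03 (SE 0.14) and -0.08 (SE 0.23) for MM over MS. Irf1, the transcription factor that binds ISRE elements, was 251.7 to 273.6 units on the SM arrays, against 274.0 to 302.7 units on the SS arrays. It was 241.4 to 267.1 units on the MM arrays, against 284.3 to 323.2 units on the MS arrays. The Irf1 groups did not overlap in either comparison, while the fold changes were small at -0.16 (SE 0.10) and -0.22 (SE 0.09). None of 12 tested genes of the signalling list met the criterion in the 2 challenge comparisons.

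Among 5 tested interferon-inducible GTPases other than Gbp2, only Igtp met the criterion. Of these 5, 3 were lower and 2 higher in SM against SS, and 4 were lower and 1 higher in MM against MS. Igtp was 2.57 units on SM replicate 1 and at the limit on the other 2 SM arrays, against 4.94, 11.6 and 9.28 units on the SS arrays. It was 14.8, 4.28 and 5.79 units on the MM arrays, against 13.6, 17.5, 14.2 and 1.73 units on the MS arrays. Gbp5, another guanylate-binding protein, was 14.1 to 14.3 units on the SM arrays, against 9.88 to 18.6 units on the SS arrays. Gbp4, a further one, was dim and went the other way from Gbp2. It was 10.4 to 20.4 units on the SM arrays, against 2.06 to 14.6 units on the SS arrays (log2 fold change 1.72, SE 0.79). Among the loading genes, Tapbp, the tapasin that bridges the transporter and class I chains, had -0.10 (SE 0.27) and -0.40 (SE 0.25), and the proteasome activators Psme1 and Psme2 had -0.07 (SE 0.13) and -0.11 (SE 0.08) for SM over SS. None of 12 tested loading genes met the criterion. Of 14 tested chemokines outside the CXCR3 group, Ccl21 and Pf4 met it as lower in SM. Ccl21, which guides cells to lymphoid tissue, was at -1.01 (SE 0.33) and the platelet chemokine Pf4 at -0.87 (SE 0.21). Ccl21 was dim, at 7.38 to 8.41 units on the SM arrays, against 14.9 to 17.2 units on the SS arrays. It was 12.2 to 13.2 units on the MM arrays, against 6.57 to 18.7 units on the MS arrays.

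The effect of METH pretreatment at a fixed challenge was tested with limma over all 17140 probes. These comparisons use the same arrays as the challenge comparisons. In MS against SS, no member met the criterion, 0 had an unadjusted p under 0.05 and all had an adjusted p of 1. Of all probes, 1.13% met the criterion and 2.62% had an unadjusted p under 0.05. The log2 fold change of Gbp2 was -0.16 (SE 0.22), with a 95% interval of -0.64 to 0.32. Cxcl11 was the farthest from 0, at -3.21 (SE 1.58, unadjusted p = 0.0651, adjusted p = 1 by limma). Without MS replicate 2, the criterion was met as lower by Cxcl11 at -4.58 and by Cd74 at -1.22. Without MM replicate 3 it was met by Cxcl11, and without SM replicate 1 by Cxcl9. Of 10 blood markers, 9 were lower (median -0.38) and Alas2 met the criterion as lower (ratio of the mean signals 0.483, adjusted p = 1 by limma), and their part in the members' values was not tested. Of the listed pathway genes only Ccl21 met the criterion in MS against SS, as lower at -0.85 (SE 0.30, adjusted p = 1 by limma). Ccl21 was dim, at 7.14, 6.57, 6.58 and 18.7 units on the MS arrays, against 14.9 to 17.2 units on the SS arrays.

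In MM against SM, Gbp2 was higher on every MM array (52.5 to 68.4 units) than on any SM array (40.5 to 44.5 units), as were 4.42% of all probes. Its log2 fold change was 0.53 (SE 0.24, unadjusted p = 0.0435, adjusted p = 1 by limma), a 1.45-fold difference that fell short of the criterion. None of the 10 genes met the criterion, which 1.55% of probes met, and Gbp2 alone had an unadjusted p under 0.05, as did 3.47% of probes. Psmb9 had almost the same mean in the 2 METH-challenged groups, 29.7 ± 9.60 units in MM and 29.5 ± 6.36 units in SM (SD, n = 3 each), with an interval for the log2 fold change of -0.70 to 0.65. The chemokines had intervals several log2 units wide. Cxcl10 met the criterion as higher in MM without SM replicate 1 (3.49), and Cxcl9 without SM replicate 4 (2.72). Igtp had a log2 fold change of 4.53 (SE 1.31, adjusted p = 1 by limma) and met it, with 2 of 3 SM arrays set to the floor. The blood marker Hba-a2, an alpha globin, met it as lower in MM, at -1.08 (SE 0.44, adjusted p = 1 by limma). Of the 10 tested blood markers, however, 6 were higher and 4 lower in MM, with a median log2 fold change of 0.22. Of 10 tested T and NK cell markers, 9 were higher and 1 lower in MM, with a median of 0.33, and none met the criterion. The summed signal of the T and NK cell markers was 131.9 to 162.1 units on the MM arrays, against 106.7 to 123.7 units on the SM arrays, without overlap. Of 15 microglial and macrophage markers, 7 were higher and 8 lower. The part of these cells in the members' values was not tested.

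The difference between the challenge effects, (MM - MS) - (SM - SS), was 0.69 for Gbp2 (SE 0.32, 95% interval -0.01 to 1.40, unadjusted p = 0.054, adjusted p = 1 by limma). The fall in Gbp2 at the challenge was therefore not shown to differ with pretreatment. Without MS replicate 2 or MM replicate 3 the difference met the criterion, at 0.93 and 0.82. For Cxcl9 it was 2.63 (SE 1.58), for Psmb9 0.24 (SE 0.42) and for B2m 0.02 (SE 0.16), all with an adjusted p of 1 by limma. No member met the criterion, which 1.66% of probes met, and 0 had an unadjusted p under 0.05, as 2.86% of probes had. The median of the 10 genes was 0.46, beside -0.02 over all probes. Blood markers ran the same way, with 9 of 10 higher and a median of 0.57, and their part was not tested. Cxcl10 met the criterion without SM replicate 1 and Cxcl9 without SM replicate 4. Of the listed pathway genes Igtp and Ccl21 met it, at 4.42 (SE 1.80) and 1.54 (SE 0.45), with an adjusted p of 1 by limma, as did the macrophage marker Mrc1 at 1.01 (SE 0.38). Most of the 15 microglial and macrophage markers went the other way, with 9 negative and 6 positive values and a median of -0.04. The Igtp value depends on the floor, because 2 of 3 SM arrays were at the limit.

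**Figure D4:**
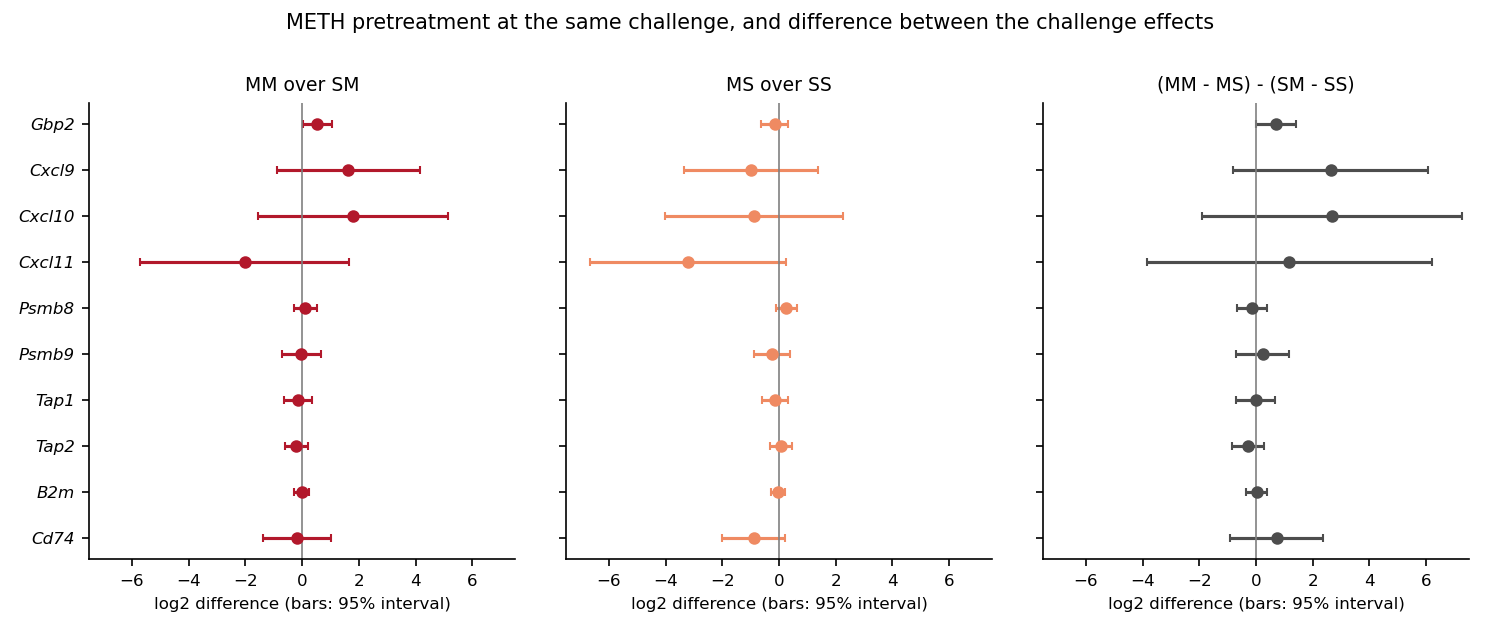
Log2 difference (horizontal axis, points) with 95% interval (bars) of the 10 genes for MM over SM (left), MS over SS (middle) and the difference of the challenge effects (right). All intervals reach 0 except that of Gbp2 in MM over SM, which runs from 0.02 to 1.05.

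Genes with the array pattern most like the mean of 7 members (all but the chemokines, each of which reached the limit) were ranked over 9605 other genes. Pearson's r over 13 arrays was 0.89 for Vom2r31, a vomeronasal receptor, 0.85 for Lgals3bp, a secreted galectin-binding glycoprotein, 0.83 for Slfn4, a schlafen family gene, 0.80 for Aurka, a mitotic kinase, and 0.80 for Col4a1, a basement membrane collagen. These are descriptions, and the arrays share MS replicate 2 as a high point. Slfn4 was 14.3, 20.6 and 28.0 units on the SM arrays, against 32.6, 57.0 and 64.3 units on the SS arrays. It was 12.5, 26.4 and 12.3 units on the MM arrays, against 44.7, 101.5, 30.4 and 33.7 units on the MS arrays. The Slfn4 log2 fold changes were -1.29 (SE 0.46) for SM over SS and -1.54 (SE 0.43) for MM over MS. Since Slfn4 was picked for its likeness over these same arrays, these values are a description. Lgals3bp was lower by smaller amounts, at -0.39 (SE 0.20) and -0.44 (SE 0.19).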

How the data were processed

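Total RNA from SN/VTA tissue was hybridised to Illumina RatRef-12 BeadChips with 22523 probes, 1 array per sample. Per the study's methods, BeadStudio read the signals and GeneSpring then scaled them by a global normalization. The deposited values, as the authors made them, are linear ratios of each probe's signal to a reference level of that probe, with a lower limit of 0.01. Scanner files and detection calls were not used here. For dim probes the ratios were whole multiples of a fixed step per array (9349 of 9349 values within a tolerance of 0.02). Relative signals in units were inferred from this step for all probes, and for brighter probes the inference was not checked separately. A printed signal is the ratio times the probe's inferred divisor, scaled to a common array median.

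For testing, ratios were divided by the array median (0.77 to 0.952), values at the limit and below the 25th percentile were set to a floor of 0.012, and a probe was kept if 3 or more of the 13 arrays exceeded that floor (17140 probes). Log2 values of all 4 groups entered 1 limma fit with a trended prior (limma 3.58.1, R 4.3.3), with Benjamini-Hochberg adjustment over all probes. The comparisons were SM against SS, MM against MS, MS against SS, MM against SM and the interaction. The cut-offs of 1.7-fold and an unadjusted p under 0.05 follow the study's methods, which used GeneSpring and not limma. The fit was tested on simulated data. Array counts of 3 and 4 limit the precision, and scan dates and slides are not given in the sources used here.

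The members and the gene lists were chosen with earlier results of these data known. Named genes were the members, list genes meeting the criterion in any comparison, fixed pathway genes (Irf1, receptor chains, loading and proteasome genes, class II chains) and the 5 genes most like the members' mean. Other genes (Ifng, Irf9, Gbp4, Gbp5, Ddc, Foxa1, Th, Slc6a3, Aif1 and the T and NK cell markers) were named for their role after their values were seen. Gene names came from the platform annotation: 13793 probes had 1 symbol and 8730 had none. All 10 members matched a current RefSeq gene and a promoter sequence. Alternatives covered scaling, floor, filter, prior, samples in the fit, replicate blocks and leaving out each array. An offset of 16 units on the signals was added after the data were examined.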

Additional observations from a re-analysis of the deposited data

Results flagged for a closer look

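In the MS group, the only group with 4 arrays, replicate 2 stood apart for 3 of the 10 genes on the signal scale, with a gap to the next array that took up most of the group's range and passed the 95% critical value of Dixon's test for 4 values. It had 158.5 units of Gbp2, 34.4 units of Cxcl10 and 45.7 units of Cxcl11, with gaps of 0.850, 0.890 and 0.961 of the range. On the log2 scale no gene passed this bound. Chance alone flags about 1 in 20 groups, and 10 groups were examined. Groups of 3 arrays were not examined in this way.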

How the results depend on the processing

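Gbp2 and Cxcl9 met the criterion in SM against SS under every alternative that tested them, and Psmb9 did not with the ratios as deposited, with an offset of 0.1, with the replicate block, with the offset of 16 units or without 5 of the 6 arrays of the comparison. With the offset of 16 units, which damps dim probes and was added after the data were examined, Cxcl9 was at -1.50 and Cxcl10 at -0.60. Requiring every array above the floor left 7 members, with a median log2 fold change of -0.18 for SM over SS and 0.02 for the interaction. That filter gave 149 probes at the criterion in SM against SS, 107 in MM against MS, 81 in MS against SS, 126 in MM against SM and 170 in the interaction, against 277, 227, 193, 266 and 285 in the main setting, and the offset of 16 units gave 38, 47, 17, 51 and 85. In MM against MS, 1 member met the criterion with an offset of 0.1 and with only the groups of the comparison in the fit, in both cases Cxcl9. In MS against SS, 1 did with an offset of 0.1, with the offset of 16 units and with replicates 1 and 2 against 3 and 4 as a block, each time Cxcl11. In the interaction, 1 did with quantile normalization (Gbp2). The causes were not tested. With all arrays kept, signs turned only near 0: Psmb9 in MM over SM was 0.02 with quantile normalization, B2m in MM over SM 0.02 with replicates 1 and 2 against 3 and 4 as a block, and Tap1 in the interaction 0.02 with quantile normalization, 0.01 with the ratios as deposited and 0.04 with that block.

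Leaving out 1 array at a time gave 2 to 3 members at the criterion in SM against SS, 0 to 1 in MM against MS, 0 to 2 in MS against SS, 0 to 1 in MM against SM and 0 to 1 in the interaction. The probes at the criterion numbered 266 to 420 in SM against SS and 257 to 405 in MM against SM, with both highest counts reached without SM replicate 1. The members' median ran from -0.56 to -0.16 in MM over MS, from -0.41 to -0.08 in MS over SS and from 0.05 to 0.66 in the interaction. The extremes came without MS replicate 3 and 2, without MS replicate 2 and 3, and without MM replicate 2 and MS replicate 2. In MS over SS, Tap2 ran from -0.03 to 0.16 and B2m from -0.10 to 0.03. In MM over SM, the ranges were -0.17 to 2.72 for Cxcl9, -0.19 to 3.49 for Cxcl10, -0.00 to 0.22 for Psmb8, -0.26 to 0.23 for Psmb9, -0.40 to 0.05 for Tap1, -0.37 to 0.00 for Tap2, -0.12 to 0.08 for B2m and -0.44 to 0.32 for Cd74. In the interaction they were -0.02 to 0.49 for Psmb9, -0.26 to 0.18 for Tap1 and -0.08 to 0.12 for B2m. Of 1225 values of single members under all alternatives, 1178 kept their direction and side of the criterion or moved by less than the spread.

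The labels do not say whether arrays of the same replicate number belong together. Of 15 same-numbered pairs, 6 had a correlation of deviations over 0.1, and 7 of 13 arrays correlated best with their own number. The median correlation was 0.076 for same-numbered pairs and -0.039 for other pairs. The source of this difference was not tested, and the main fit uses no block. With the replicate number as a block, the members' median in the interaction was 0.23, and B2m in MM over SM was 0.00. Gbp2 and Cxcl9, but not Psmb9, then met the criterion in SM against SS. The mean over several probes could not be tried because each member has 1 probe, and the interaction needs all 4 groups in the fit.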
